A study of Mus musculus with 8 samples.

Results

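Chromatin accessibility was described at 8 genes of the synaptic adhesion complex: the neurexins Nrxn2 and Nrxn3, the neuroligins Nlgn1 and Nlgn2, and the leucine-rich-repeat transmembrane neuronal genes Lrrtm1, Lrrtm2, Lrrtm3 and Lrrtm4. They were 8 of the 21631 protein-coding genes that the RefSeq table places on chromosomes 1 to 19 and X. An ATAC-seq peak was counted for a gene when its summit lay inside the gene or within 5 kb of it. By this rule the 8 full peak lists held 1012 peaks at the 8 genes, and 702 of them were among the strongest 53864 peaks of their library.

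Neurexins are cell-surface proteins of the presynaptic terminal, and a neurexin gene can use an upstream promoter for the long alpha form and an internal promoter for the short beta form. Neuroligins and LRRTM proteins sit in the postsynaptic membrane and bind neurexins across the cleft, which helps to organize receptors and release sites at the contact. Nlgn1 is best known from excitatory synapses and Nlgn2 from inhibitory ones, while LRRTM proteins act mainly at excitatory synapses.

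ATAC-seq marks open chromatin by the insertion of Tn5 transposase into nuclear DNA. Libraries came from amygdala neurons of 8 male C57BL/6J mice. In 4 mice an AAV had brought a guide against Nr2f2, which encodes a nuclear receptor transcription factor, to the amygdala (sgNr2f2), and in the other 4 mice the guide targeted the Rosa locus (sgRosa). Mice of both groups had expressed the guide for more than 2 weeks, and both groups then went through tube restraint for 7 days, fear conditioning for 1 day and extinction training for 3 days. Neurons were taken from papain-digested tissue with a magnetic isolation kit for adult neurons, so each library mixes the neuron types of the amygdala, and the labels name no sort for transduced cells. The labels used here state neither the source of Cas9 nor the age of the mice. No unstressed mice were among the samples, so the comparison is of the 2 guides after stress. The question put by the design is whether a knockdown of Nr2f2 alters chromatin accessibility in these neurons.

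The full lists held 53864 to 143405 peaks, and the share of peaks with a q under 0.05 ran from 4.81% to 18.6%. Read totals are not part of a peak list, so depth is unknown, and a peak that is not listed may be present below the calling limit. Most results below therefore use the strongest 53864 peaks of each library by deposited p, called lists of equal length. A peak list holds no transcript level, so the knockdown itself was not checked here. Of 10 neuronal marker genes, 0 to 3 had a peak within 1 kb of a gene end in a library of equal length, or 11.25% of all pairs of marker and library, beside 9.69% for all protein-coding genes. Gad2, which encodes an enzyme of GABA synthesis, had none even in the full lists. For 4 markers each of astrocytes, microglia, oligodendrocytes and vascular cells the share was 9.38%, 15.6%, 6.25% and 12.5%, so the neuronal share was below those of microglial and vascular markers. In such bulk libraries, fewer cells of a type and less open chromatin per cell cannot be told apart.

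The 8 genes differ greatly in length. Nrxn3 (gene ID 18191) spans 1612 kb at chr12:88722701-90334935 and Nrxn2 (18190) 114 kb at chr19:6418756-6533217. Nlgn1 (192167) spans 911 kb at chr3:25421808-26332866, and Nlgn2 (216856) only 14.7 kb at chr11:69823123-69837784. Lrrtm4 (243499) covers 791 kb at chr6:80018858-80810162 and Lrrtm3 (216028) covers 162 kb at chr10:63928497-64090255. The remaining members are Lrrtm1 (74342), 30.7 kb at chr6:77229210-77259915, and Lrrtm2 (107065), 6.02 kb at chr18:35209003-35215024. Coordinates are mm10, and gene positions come from RefSeq.

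Lrrtm1, Lrrtm2 and Lrrtm3 lie inside the alpha-catenin genes Ctnna2, Ctnna1 and Ctnna3, whose products link cadherins to actin, so a peak at these members is also a peak in an alpha-catenin gene. Nrxn2 and Nlgn2 stand in dense surroundings: Rasgrp2 and Slc22a12 lie within 5 kb of Nrxn2, and Spem1, Spem2 and Tmem256 within 5 kb of Nlgn2.

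Promoters were the first place examined. RefSeq (GRCm38.p6, the assembly of mm10) gave 10 promoters for 6 of the 8 genes, with none matched for Nrxn2 and Lrrtm2. In the full lists, only the Nrxn3 start at position 88953390 had a summit within 1 kb of the start. In sgRosa 2 that summit lay 353 bases downstream (fold 3.59 over local background, −log10 p 5.87). In sgNr2f2 4 there were 2 summits, 837 bases upstream and 819 bases downstream. At the Nrxn3 start at 88794504, sgRosa 1 and sgNr2f2 2 had summits 1046 and 1142 bases upstream, within 1 kb of the promoter window. For Lrrtm1 the nearest was a sgRosa 4 summit 1229 bases upstream of its start at 77242477. These are the promoters printed here, each as the 250 bases before the start on the plus strand, because they were the only ones with a peak inside or within 1 kb of the window.
Nrxn3 promoter chr12:88794254-88794553: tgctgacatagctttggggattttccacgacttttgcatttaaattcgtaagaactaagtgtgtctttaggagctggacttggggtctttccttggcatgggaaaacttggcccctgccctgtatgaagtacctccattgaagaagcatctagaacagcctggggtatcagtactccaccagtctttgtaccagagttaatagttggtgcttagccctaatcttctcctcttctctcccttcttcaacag
Nrxn3 promoter chr12:88953140-88953439: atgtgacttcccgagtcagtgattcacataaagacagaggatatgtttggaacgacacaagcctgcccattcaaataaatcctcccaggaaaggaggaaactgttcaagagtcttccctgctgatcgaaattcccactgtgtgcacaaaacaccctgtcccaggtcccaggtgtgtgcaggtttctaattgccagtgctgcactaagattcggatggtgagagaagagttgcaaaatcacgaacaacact
Lrrtm1 promoter chr6:77242227-77242526: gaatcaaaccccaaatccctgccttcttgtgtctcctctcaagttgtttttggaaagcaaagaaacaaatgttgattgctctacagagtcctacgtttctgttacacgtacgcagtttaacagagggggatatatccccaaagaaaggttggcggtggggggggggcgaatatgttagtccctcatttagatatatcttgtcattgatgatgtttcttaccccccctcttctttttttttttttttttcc
Each window runs 50 bases past the start, and those bases are not printed. No letters are in capitals because the motif searched, AGGTCA (the nuclear receptor half-site, and TGACCT on the other strand), occurred in 0 of the 10 member promoters, beside 16.3% of the 32851 promoters of the table. The letters say nothing about the binding of the factor elsewhere.

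No called interval overlapped any of these 3 promoter windows. At the 7 other promoters of the members, the nearest summit of any library was between 1.62 kb (Lrrtm4, sgRosa 4) and 4.42 kb (Nlgn1, sgRosa 1) from the start. Thus 3 of the 10 promoters had a summit inside or within 1 kb of the window in at least 1 full list, and 2 of them in 2 lists. Over all promoters of the table, 48.9% had a summit within 1 kb of the window in at least 1 full list and 16.8% in at least 2. A wider count over both gene ends, which needs no strand, gave 3 of 8 members with a summit within 1 kb of an end in lists of equal length, beside 51.9% of all protein-coding genes. These were Nrxn2 in sgNr2f2 2, Lrrtm1 in sgNr2f2 4 and Lrrtm3 in sgRosa 1 and sgRosa 4. The Lrrtm3 peaks stood at its 3′ end. Nrxn3, Nlgn1, Nlgn2, Lrrtm2 and Lrrtm4 had none in any library, also in the full lists, where 64.1% of all protein-coding genes had one.

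Nearly all member peaks were thus inside the long genes. Nrxn3, Nlgn1 and Lrrtm4 together held 630 of the 702 peaks (89.7%) and made up 91.0% of the summed gene length.

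Of the neurexins, Nrxn3 had the most peaks of any member. In lists of equal length the sgRosa libraries 1 to 4 held 46, 36, 41 and 22 Nrxn3 peaks, and the sgNr2f2 libraries 1 to 4 held 39, 34, 36 and 59. The lowest value was sgRosa 4 and the highest sgNr2f2 4, and the other 6 libraries, of both groups, lay between 34 and 46. These 2 libraries had the longest full list (sgRosa 4, 143405 peaks) and the shortest (sgNr2f2 4, 53864). In full lists sgNr2f2 1 had the most Nrxn3 peaks (81), then sgRosa 4 (68), and sgRosa 2 the fewest (42). The part of the cut to equal length in the Nrxn3 counts was not tested. In lists of equal length, mean counts of 36.2 ± 10.3 and 42.0 ± 11.5 (SD, n = 4 each) gave a difference of 5.75 peaks (exact permutation p = 0.571). Single libraries moved it, to 0.0833 without sgNr2f2 4, 1.0 without sgRosa 4 and 9.0 without sgRosa 1. Nrxn2 had 1, 3, 2 and 1 peaks in sgRosa and 3, 3, 3 and 6 in sgNr2f2. In these lists each sgNr2f2 library held at least as many as the highest sgRosa library, with a tie at 3. The means of 1.75 ± 0.957 and 3.75 ± 1.5 (SD, n = 4 each) differed by 2.0 peaks (exact permutation p = 0.114). Without sgRosa 2, the sgRosa library at 3, the Nrxn2 difference was 2.42 with an exact permutation p of 0.0286, which was 1 after adjustment. The share of all genes with such a p in that setting is not given here. In full lists the groups overlapped, with 1, 5, 2 and 6 Nrxn2 peaks in sgRosa and 8, 3, 5 and 6 in sgNr2f2 (exact permutation p = 0.314).

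Of the neuroligins, Nlgn1 had 45, 27, 10 and 17 peaks in sgRosa and 23, 16, 17 and 13 in sgNr2f2. The sgRosa libraries spanned the whole sgNr2f2 range, from sgRosa 3 below it to sgRosa 1 far above it. Mean counts of 24.8 ± 15.2 and 17.2 ± 4.19 (SD, n = 4 each) gave a difference of −7.5 peaks (exact permutation p = 0.457). That difference was −0.75 without sgRosa 1 and −12.4 without sgRosa 3. Nlgn2, the neuroligin of inhibitory contacts, had 0, 1, 2 and 1 peaks in sgRosa and 0, 0, 1 and 1 in sgNr2f2 (exact permutation p = 0.657 for 1.0 ± 0.816 against 0.50 ± 0.577, SD, n = 4 each).

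Of the LRRTM genes, Lrrtm4 had 29, 12, 21 and 26 peaks in sgRosa and 15, 27, 9 and 10 in sgNr2f2. The groups overlapped: sgNr2f2 2 stood among the high sgRosa libraries and sgRosa 2 among the low sgNr2f2 ones. The means were 22.0 ± 7.44 and 15.2 ± 8.26 (SD, n = 4 each; exact permutation p = 0.286). Their difference of −6.75 was −10.7 without sgNr2f2 2 (exact permutation p = 0.0857) and −4.42 without sgRosa 1. Lrrtm3 had 11, 6, 1 and 2 peaks in sgRosa and 1, 4, 3 and 6 in sgNr2f2, with 5.0 ± 4.55 against 3.50 ± 2.08 (SD, n = 4 each; exact permutation p = 0.686). Its 11 peaks in sgRosa 1 gave that order, since without this library the sgNr2f2 mean was higher by 0.50 peaks. Lrrtm1 had 1, 0, 0 and 1 peaks in sgRosa and 3, 1, 1 and 1 in sgNr2f2 (exact permutation p = 0.286), and Lrrtm2 had a single peak in each of sgRosa 4 and sgNr2f2 3 and none elsewhere (exact permutation p = 1).

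**Figure D1:**
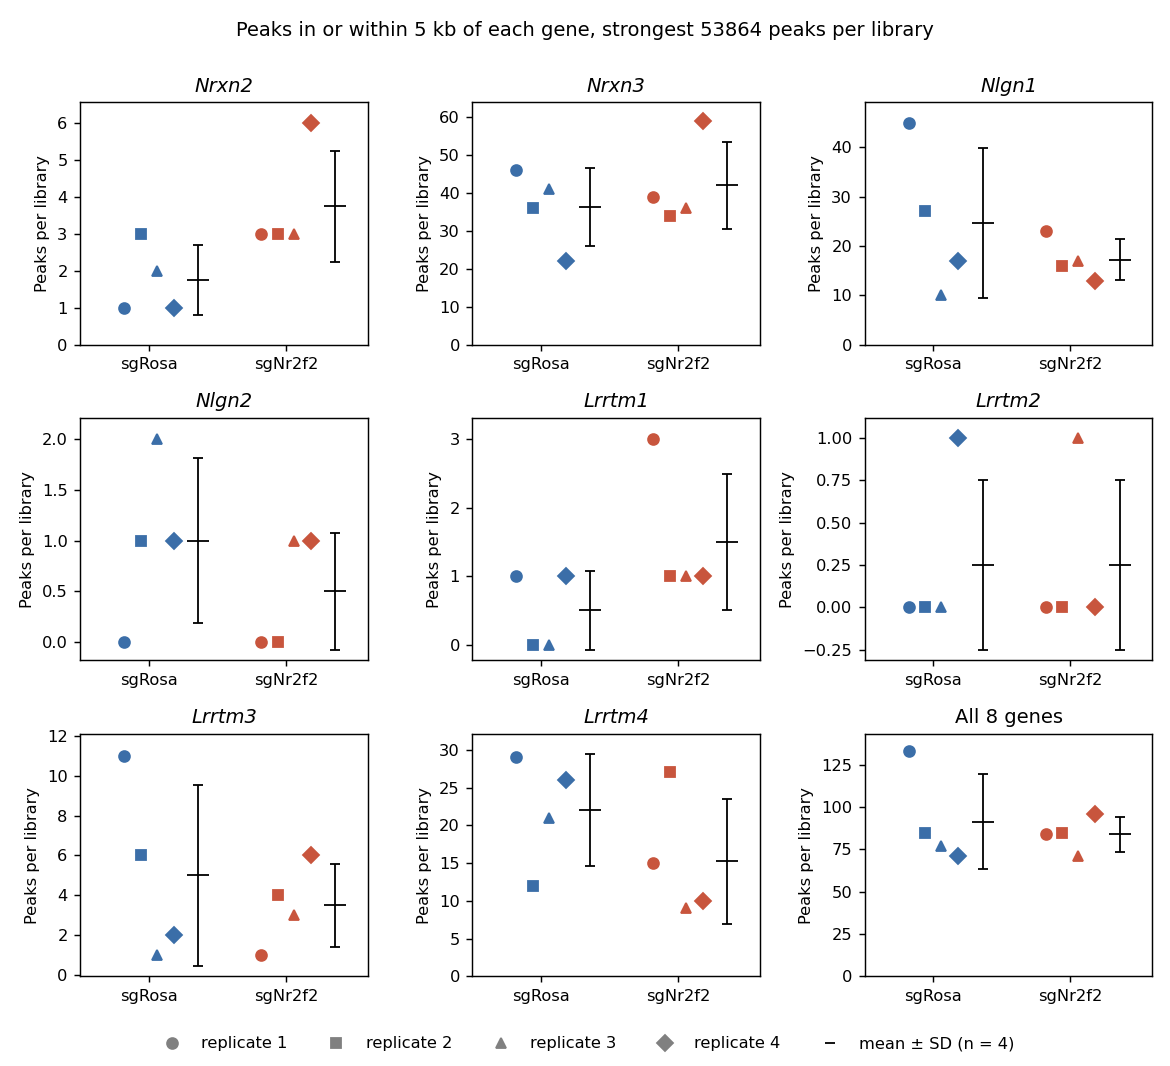
Peaks in or within 5 kb of each gene (vertical axes, peaks per library) in lists of equal length, 1 panel per gene and 1 for all 8 genes; points are libraries, shaped by replicate number, and bars give the mean ± SD of 4 libraries. The groups overlap or touch in every panel, and sgRosa 1 stands highest for all 8 genes together (133 peaks), with 45 at Nlgn1.

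In these exact permutation tests, adjusted by the Benjamini-Hochberg method over 19221 genes with a peak, 0 of the 8 members passed 0.05 (each adjusted p = 1), as did 0 genes in all (0.0%). At an unadjusted exact p under 0.05, which 4 libraries against 4 reach only when the groups do not overlap and which cannot fall below 0.0286, there were 0 of the 8 members, beside 222 of 19221 genes (1.15%). The adjusted test, here and in full lists, could call a gene only if a large share of all genes reached that smallest p. Its outcome was thus nearly fixed in advance and says little about the members. In full lists, counted per 10000 peaks of the library, 0 of 8 members again passed either limit, beside 2.49% of 19792 genes at the unadjusted one. The smallest member p there was 0.171, for Lrrtm1, by the exact permutation test with 0.109 against 0.271 peaks per 10000 (n = 4 each). The labels give 4 mice per group, and each library was taken as 1 mouse. These p-values rank the observed group difference among the 70 assignments of these libraries to groups. The median difference (sgNr2f2 minus sgRosa) was −0.25 peaks over the 8 members and 0.0 over all genes tested.

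Summed over the 8 genes, the sgRosa libraries held 133, 85, 77 and 71 peaks and the sgNr2f2 libraries 84, 85, 71 and 96. The sgRosa mean was higher (91.5 against 84.0 peaks) only through sgRosa 1: without this library the sgNr2f2 mean was higher by 6.33. The same library had the most peaks in the 101 genes at least as long as Lrrtm4, namely 2872, with 2151 to 2777 in the other 7 libraries. Its list also had one of the highest shares of peaks with a q under 0.05 (18.6%, as in sgNr2f2 3). The part of either in the count at the members was not tested.

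Per unit of length the members lay close together. The mean density over 8 libraries ran, from high to low, from 30.4 ± 28.7 peaks per Mb at Nlgn2 through Lrrtm3 (24.7 ± 19.6), Lrrtm1 (24.6 ± 22.7), Nrxn3 (24.1 ± 6.53), Lrrtm4 (23.2 ± 10.1), Nlgn1 (22.8 ± 12.02) and Nrxn2 (22.1 ± 12.7) to 15.6 ± 28.9 at Lrrtm2 (SD, n = 8). Each neighbour in that order differed by less than these SDs. The mean over the genome was 21.0 peaks per Mb. The long Nrxn3 had the narrowest spread, and the short Nlgn2 and Lrrtm2, with 0 to 2 peaks a library, the widest.

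The density of each gene was then set against the 1 Mb on either side of it. For the 8 genes pooled, gene over flanks was 1.34, 1.04, 0.892 and 0.845 in sgRosa and 0.923, 1.06, 0.816 and 1.15 in sgNr2f2, with a mean of 1.01 ± 0.177 (SD, n = 8). Only Nrxn3 had a small p. Its gene density was 28.4, 22.2, 25.3 and 13.6 peaks per Mb in sgRosa and 24.0, 21.0, 22.2 and 36.4 in sgNr2f2. In its flanks the values were 24.5, 17.0, 23.0 and 14.0 in sgRosa and 20, 21.0, 16.5 and 18.5 in sgNr2f2. The gene was above its flanks in 6 of 8 libraries, by 4.81 ± 5.74 peaks per Mb on average (SD, n = 8), with an exact sign-flip permutation p of 0.0312 and 0.287 after adjustment over 20414 genes. In full lists the gene was above its flanks in 7 of 8 libraries, by 7.12 peaks per Mb (exact sign-flip permutation p = 0.0156, adjusted p = 0.202), where 2.93% of all genes had such an unadjusted p. In lists of equal length, 2.33% of all genes and 6.25% of the 96 tested genes as long as Lrrtm4 or longer were denser than their flanks at an unadjusted p under 0.05. The share less dense than their flanks was 10.4% of all genes and 2.08% of those 96, and 0 genes (0.0%) passed after adjustment in either direction. Of all protein-coding genes only 19221 had a peak, fewer than the 20414 tested here, so the 10.4% can include genes without any peak. Such a gene is below its flanks wherever they hold a peak, which nearly fixes its p. The 10.4% is therefore not read as depletion. By the ratio of gene to flanks among those 96 long genes, whose median was 1.022, Nrxn3 ranked 7, Nlgn1 61 and Lrrtm4 86. The Nrxn3 difference depended on the flanks: it was 6.72 (higher in 8 of 8 libraries, exact sign-flip permutation p = 0.00781, adjusted p = 0.108) with the bases of other protein-coding genes left out of them, and 0.993 (exact sign-flip permutation p = 0.875) with flanks of 500 kb. It was 5.02 in the gene body alone and 2.94 without sgNr2f2 4. With peaks of q under 0.05 alone it turned to −0.616.

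At the other members the gene lay within the spread of its flanks. Nlgn1 had 22.8 ± 12.02 peaks per Mb in the gene and 23.1 ± 6.93 in the flanks, Lrrtm4 23.2 ± 10.1 and 26.9 ± 10.4, and Lrrtm3 24.7 ± 19.6 and 23.8 ± 7.36 (SD, n = 8). The exact sign-flip permutation p was between 0.234 and 0.914 over the 7 members besides Nrxn3. For Lrrtm1, gene minus flanks was −13.1 peaks per Mb in sgRosa and 17.5 in sgNr2f2, a difference of 30.6 (exact permutation p = 0.0286, not adjusted, 8 genes examined). The share of all genes with such a p is not given here, so this difference is not read as particular to Lrrtm1. That difference rests on 2 peaks in the 4 sgRosa libraries and 6 in the 4 sgNr2f2 libraries, and in full lists its exact permutation p was 0.229.

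**Figure D2:**
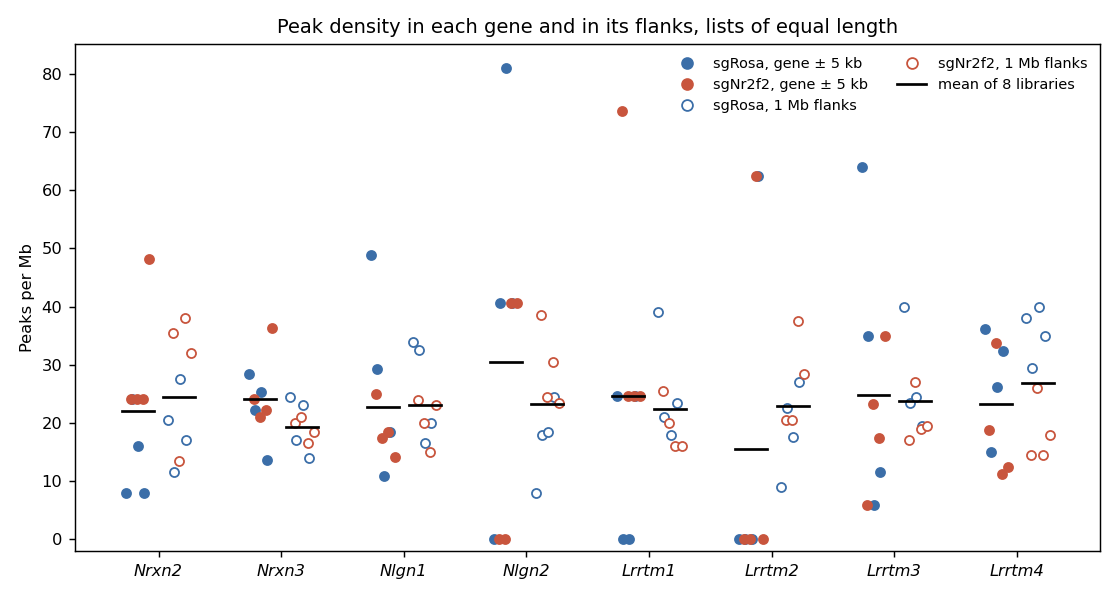
Peaks per Mb (vertical axis) in each gene with 5 kb on either side (filled points) and in the 1 Mb flanks beyond (open points), 1 point per library, sgRosa in blue and sgNr2f2 in red, with lines at the mean of 8 libraries. Filled points of Nrxn3 centre on 24.1 and open ones on 19.3, while for the short genes a single peak moves a point far.

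Libraries ranked differently in the flanks of different members. The flanks of Nlgn2, Nrxn2 and Lrrtm2 hold 107, 90 and 36 protein-coding genes, and those of Lrrtm1, Lrrtm4, Nlgn1, Lrrtm3 and Nrxn3 hold 1, 1, 5, 12 and 17. Library sgRosa 1 had the lowest flank count of all libraries at Nlgn2 (16 peaks) and Lrrtm2 (18 peaks). The same library had the highest at Lrrtm1 (78 peaks), Lrrtm3 (80 peaks), Nlgn1 (68 peaks) and Nrxn3 (49 peaks). The highest flank counts at Nlgn2, Nrxn2 and Lrrtm2 were in sgNr2f2 1 (77 peaks) and sgNr2f2 3 (76 and 75 peaks). The part of this difference between libraries in the counts at the members was not tested.

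Peaks of Nrxn3, Nlgn1 and Lrrtm4 were spread along the gene. Nrxn3 was cut into 10 stretches of equal length, in which, counted from its start, both groups together had 38, 28, 35, 39, 32, 25, 23, 35, 24 and 34 peaks. No stretch was empty and the first was near the highest. Nlgn1, read from its start on the minus strand, had 9, 11, 21, 18, 19, 17, 15, 21, 17 and 20. Its sparse first stretches contained the widest interval without a peak at any member, 51.1 kb between 66.4 and 117.5 kb from the start. Lrrtm4 had 16, 15, 20, 14, 13, 20, 15, 6, 16 and 13, with its fewest in the eighth, where a gap of 27.8 kb begins 612 kb from the start. Lrrtm3 had none in its first stretch and 2 to 5 in each of the others. The median distance between neighbouring summits over all libraries was 3.80 kb in Nrxn3, 3.78 kb in Nlgn1, 3.60 kb in Lrrtm4 and 3.51 kb in Lrrtm3.

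**Figure D3:**
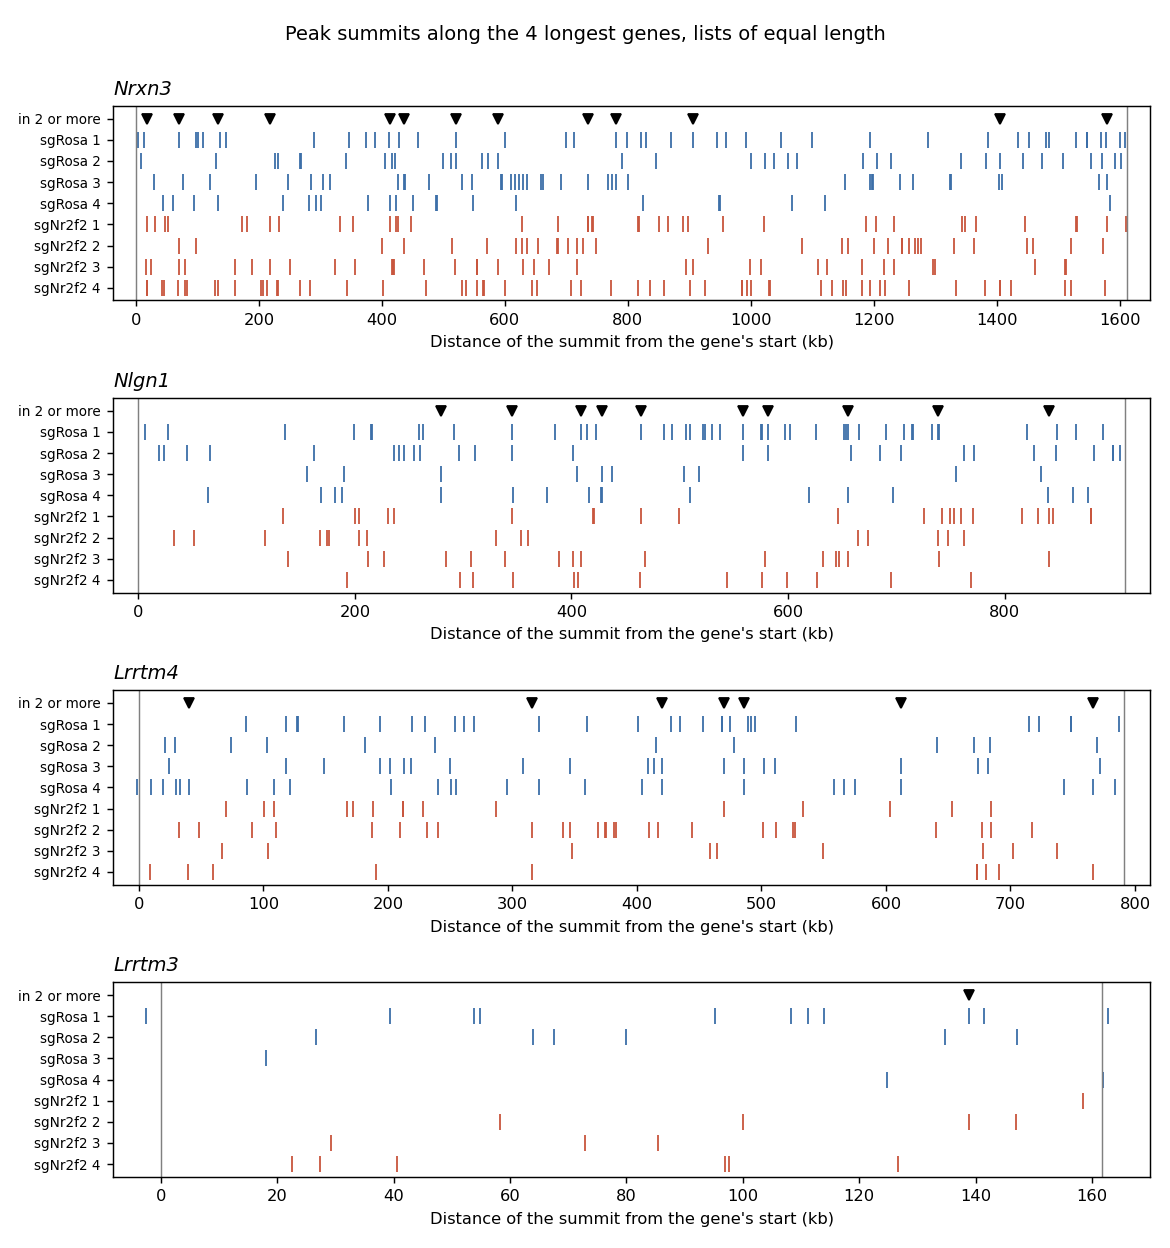
Summits along Nrxn3, Nlgn1, Lrrtm4 and Lrrtm3 by distance from the gene's start (horizontal axes, kb), 1 row per library, sgRosa in blue and sgNr2f2 in red; grey lines mark the gene's ends and black triangles the regions found in 2 or more libraries. Peaks of Nrxn3, Nlgn1 and Lrrtm4 occur in each of 10 stretches of equal length. The widest interval without a peak is 51.1 kb in Nlgn1 (66.4 to 117.5 kb), 27.8 kb in Lrrtm4 and 26.4 kb in Nrxn3. Lrrtm3 is empty up to 18.1 kb inside its start.

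Member peaks were close to the typical peak of these lists in strength, and well below the strongest. Under an assumed Poisson test, the deposited fold and p together give the pileup at a summit and the background it was tested against. The pileup is called fragments here, but what it counts depends on calling options that are not given. At the members the median summit had 12 fragments (range 9 to 20) over a median background of 4.02, for a median fold of 2.77. Over all peaks of equal length the median fold was 2.79. The median −log10 p was 3.84 at the members and 3.88 over all peaks, but the highest was 8.35 at the members and 4604 anywhere. A q under 0.05 was reached by 82 of 702 member peaks (11.7%) and by 14.98% of all peaks. Of the 8 genes, Nrxn3 had 35 such peaks, Nlgn1 and Lrrtm4 20 each, Nrxn2 3, Lrrtm3 2, Nlgn2 and Lrrtm1 1 each and Lrrtm2 none.

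**Figure D4:**
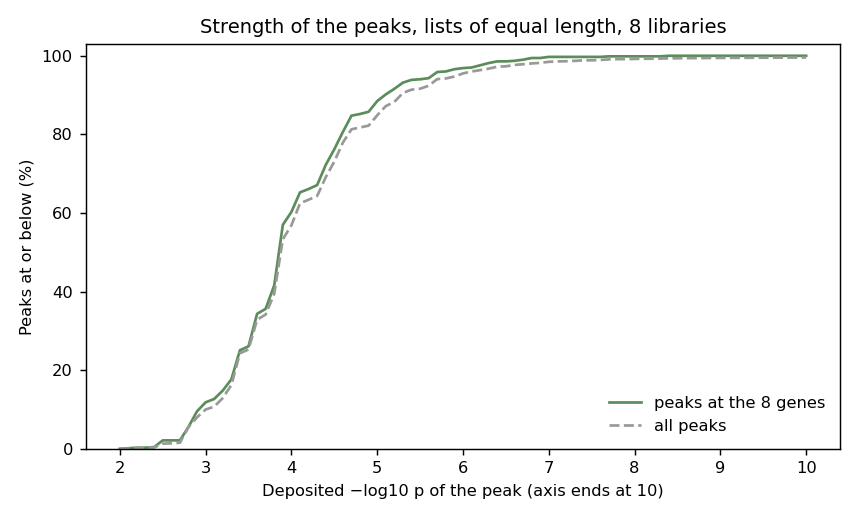
Share of peaks (vertical axis, %) at or below a deposited −log10 p (horizontal axis, drawn to 10) for member peaks (solid) and all peaks (dashed) in lists of equal length. The curves run close together, with medians of 3.84 and 3.88.

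The strongest peak at any member was in Nrxn3 in sgRosa 1, at chr12:88726322-88726579, 3.8 kb from the gene's start. It had 20 fragments over a background of 4.2 (fold 4.04, −log10 p 8.35) and ranked 389 in its library. The next was also Nrxn3 in sgRosa 1, at chr12:90323284-90323514 near the far end of the gene (−log10 p 7.62). In Lrrtm4 the leading peaks were at chr6:80428312-80428525 in sgNr2f2 2 (−log10 p 6.97) and at chr6:80567874-80568040 in sgNr2f2 3 (−log10 p 6.93). Nlgn2 had its strongest inside the gene at chr11:69831266-69831462 in sgRosa 4, with 13 fragments over 2.3 (fold 4.24, −log10 p 6.80). For Nlgn1 it was chr3:25757428-25757578 in sgRosa 1 (−log10 p 6.74) and for Nrxn2 chr19:6524326-6524522 in sgNr2f2 3 (−log10 p 5.89). Each of these 7 peaks was called in a single library of equal length. In full lists the second Nrxn3 peak was also called in sgRosa 4, with summits 29 bases apart. The first Lrrtm4 peak was also called in sgRosa 4 there, with summits 45 bases apart.

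Few positions recurred. Merging intervals that shared at least 1 base left 668 regions at the 8 genes, of which 635 came from 1 library, 32 from 2, 1 from 3 and none from more. Regions in 2 or more libraries were thus 33 (4.94%), beside 5.13% of all 405567 regions. By gene they numbered 13 of 300 in Nrxn3, 10 of 157 in Nlgn1, 7 of 142 in Lrrtm4 and 1 each in Nrxn2, Lrrtm1 and Lrrtm3. Nlgn2 and Lrrtm2 had none. Over the genome 230 regions were in all 8 libraries, and none of these was at a member. In full lists 62 of 944 member regions (6.57%) were in 2 or more libraries, beside 6.91% of all regions, and 5 were in 3.

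The single region found in 3 libraries of equal length was in Nlgn1, at chr3:25677613-25677947, 655.1 kb from its start, in sgRosa 1, sgRosa 4 and sgNr2f2 3. Its deposited −log10 p was between 3.34 and 5.45. The closest repeat of a summit was in Lrrtm3 at chr10:63951220-63951558, where sgRosa 1 and sgNr2f2 2 differed by 5 bases. In Lrrtm4, summits of sgRosa 3 and sgRosa 4 lay 6 bases apart at chr6:80438583-80438889, and downstream of Lrrtm1 those of sgRosa 4 and sgNr2f2 1 lay 9 bases apart at chr6:77263572-77263758. The pair of summits upstream of the Nrxn3 promoter printed first formed another recurrent region, chr12:88793271-88793509.

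Of the 33 recurrent regions, 20 had libraries of both groups (60.6%), 9 of sgRosa alone and 4 of sgNr2f2 alone. Over all 20795 recurrent regions the share with both groups was nearly the same (59.9%), with 19.8% in sgRosa alone and 20.3% in sgNr2f2 alone. None was in 3 or 4 libraries of a group and in 0 of the other, a pattern met by 0.0205% of all regions for sgRosa and 0.0222% for sgNr2f2. In full lists there was 1, in Nlgn1 at chr3:25491640-25491964 (sgNr2f2 1, 2 and 3, −log10 p 2.84 to 3.87), where 0.0373% of all regions had that pattern and 0.0332% the reverse one.

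**Figure D5:**
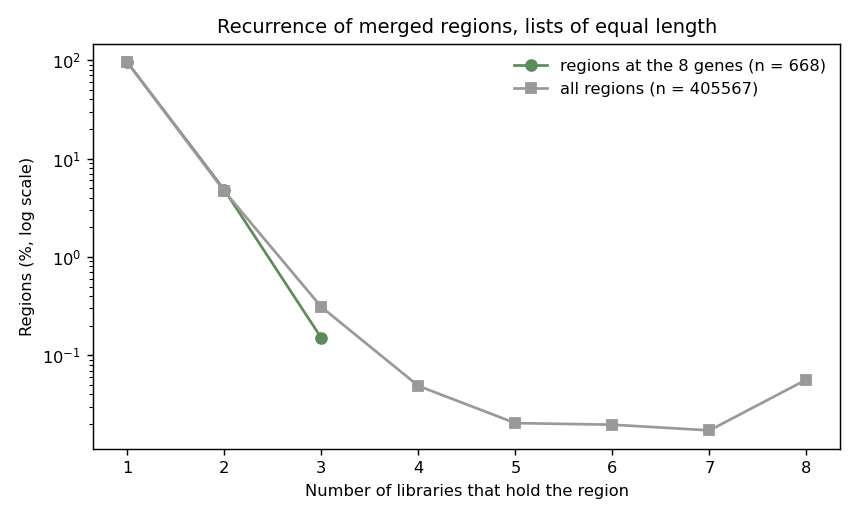
Share of merged regions (vertical axis, %, log scale) by the number of libraries that hold them (horizontal axis), for the 668 regions at the 8 genes (green) and all 405567 regions (grey), lists of equal length. Both lines fall together from 1 to 2 libraries, and member regions end at 3.

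The alpha-catenin genes around the LRRTM genes were counted over their whole length, members included. Ctnna3, the host of Lrrtm3, had 74, 36, 39 and 32 peaks in sgRosa and 21, 48, 31 and 29 in sgNr2f2 (exact permutation p = 0.343). Here too sgRosa 1 was highest. Ctnna2, the host of Lrrtm1, had 40, 23, 25 and 24 against 35, 27, 19 and 16 (exact permutation p = 0.514), and Ctnna1, the host of Lrrtm2, had 0, 3, 2 and 6 against 2, 3, 7 and 2 (exact permutation p = 0.771). The groups overlapped at all 3 hosts.

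Other genes of the pathway were taken from 5 lists. In none of them did a gene pass the adjusted exact permutation test in either direction, an outcome nearly fixed by the smallest possible p of 0.0286. Among 19 neurexin ligands and binding partners, such as cerebellins, neurexophilins and the delta glutamate receptors, 18 had a peak and 1 was higher in sgNr2f2 at an unadjusted p under 0.05. This was Grid1, a delta receptor that binds neurexins through cerebellins, with a mean of 16.5 ± 3.11 peaks under the Rosa guide and 26.8 ± 4.5 under the Nr2f2 guide (SD, 4 libraries per group; exact permutation p = 0.0286, adjusted p = 1). Over all genes tested, 154 were higher (0.801%) and 68 lower (0.354%) in this way. For Car10, a carbonic anhydrase-related neurexin ligand, the means were 11.5 and 15.2 peaks, and for Igsf21 7.5 and 4.5. The median difference over this list was 0.125 peaks.

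The 4 other lists had 0 genes past the unadjusted limit in either direction. Among 5 regulators of neuroligins and LRRTM proteins, Mdga2, whose product blocks neuroligin binding to neurexin, had mean counts of 22.2 ± 6.34 and 19.2 ± 3.69 in the order sgRosa, sgNr2f2 (SD, 4 libraries per group). Of 15 scaffold genes, the postsynaptic scaffold gene Dlg2 had means of 39.2 and 47.8 peaks, Shank2 21.0 and 15.8, and Gphn, which encodes the gephyrin of inhibitory synapses, 10.8 and 7.5. Among 12 other leucine-rich-repeat organizers, Lrrc4c had 34.5 ± 6.03 and 24.5 ± 3.87 peaks (SD, n = 4 each; exact permutation p = 0.0571). Of 10 receptor phosphatases, latrophilins and teneurins, Ptprd had 63.2 ± 8.30 and 44.2 ± 6.55 and Tenm3 34.2 ± 3.50 and 26.0 ± 4.08 (SD, n = 4 each; exact permutation p = 0.0571 for each, adjusted p = 1). The other named genes had few peaks: Mdga1 means of 2.25 and 1.75, Thbs1 1.0 and 0.75, Flrt1 2.0 and 4.75, Lrrc4b 0.25 and 1.0, and Ptprf 3.0 and 5.0. The median differences of these lists were −0.375 for the regulators, 0.125 for the scaffolds, −0.125 for the organizers and −0.25 for the last list, beside 0.0 over all genes.

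The library pattern of Nrxn3, the member with the most peaks, was most like that of Zfp993 (Spearman rho 0.93 over 8 libraries), Camkmt (0.91) and Slc24a3 (0.90) among 1020 genes with at least 40 peaks. Zfp993 and Slc24a3 had their lowest count in sgRosa 4, as Nrxn3 did, but Camkmt had its lowest in sgNr2f2 2 (4 peaks, beside 6 in sgRosa 4). The genes were picked for the highest rho in these same counts, so a shared low library is no separate result. How high a rho arises by chance among so many genes was not tested. Library sizes were equal by construction, and the genes share the same 8 libraries.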

How the data were processed

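The authors' deposited files were 1 narrowPeak list per library. Each peak carried the authors' score, fold over local background (a ratio) and −log10 p and −log10 q values, all deposited by the authors' peak caller. Per the submitters' processing notes, MACS2 2.2.9.1 was among the tools, with DiffBind 3.10.0, HOMER 4.10, Picard and, for the reads, MultiQC 1.11, fastp 0.23.2 and FastQC 0.11.9, on mm10. How reads were aligned, duplicates treated, cut sites shifted and options set is not given in the sources used here. No list held a −log10 p under 2.0 or a width under 150 bases.

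From the files, lines of 1 interval were reduced to the one with the highest −log10 p (3499 lines), and 509 lines on Y and the mitochondrial chromosome were left out. Lists were shortened to the strongest 53864 peaks, the length of the shortest list. Whole pileups (called fragments) and backgrounds were solved from fold and −log10 p, under a Poisson test, for at least 99.95% of the peaks of each library. Groups came from the sample titles. Counts per gene were compared by an exact two-sided permutation test (70 assignments). Gene and flank densities were compared by an exact two-sided sign-flip test (256 assignments, smallest p 0.00781) for genes with at least 40 peaks in gene and flanks. Both used Benjamini-Hochberg adjustment over all such genes, and the scripts were tested on simulated data. Counting error per peak cannot be given because read totals are unknown. The work used Python 3.11.15, numpy 2.4.6, pandas 2.3.3 and scipy 1.17.1.

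Named genes were all 8 members, the genes overlapping them, up to 3 genes per pathway list with the largest difference, and the 3 genes most like the member with the most peaks. Members and lists were chosen with earlier results of these data known. Alternatives covered list length, a q under 0.05, ranking by fold, every summit kept, windows, flanks, shared summits, a replicate block and leaving out each library. Sequences of the peaks themselves were not used here.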

Additional observations from a re-analysis of the deposited data

Results flagged for a closer look

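In 7 of 36 sets of 4 libraries examined, 1 library stood apart from the other 3 by Dixon's criterion, which chance meets in about 1 of 20 sets of continuous values. Tied small counts meet it whenever 1 value differs, as in most of these sets, and Lrrtm2 enters by both count and ratio, so their number is not read as an excess. For Nrxn2, sgNr2f2 4 held 6 peaks while the other 3 sgNr2f2 libraries held 3 each, and the ratio of gene to flank density was highest in sgRosa 2 at 2.10. For Lrrtm1, sgNr2f2 1 held 3 peaks and the other sgNr2f2 libraries 1 each. For Lrrtm2, the single peak of sgRosa 4 and that of sgNr2f2 3 each stood against 0 in the rest of their group, with gene to flank ratios of 2.31 and 1.66. The difference between gene and flanks at Lrrtm1 was larger in sgNr2f2 than in sgRosa by 30.6 peaks per Mb (exact permutation p = 0.0286, the smallest that 4 libraries against 4 can give, with 8 genes examined). The share of all genes that reach this p is not given here.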

How the results depend on the processing

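Of 81 recomputed values that answer a comparison, 76 stayed within the spread between libraries (for counts, within 1.5 times). Direction was not part of this rule, so the summed difference counts as kept also where it turned positive. The 76 include the number of members passing the adjusted group test, which was 0 in every setting and nearly fixed by the smallest possible p. They are therefore not read as a measure of stability. The count of member regions in 2 or more libraries, 33, was 62 in full lists, 9 of 329 with lists of 26932 peaks (2.74%, beside 3.05% of all regions) and 0 of 82 with a q under 0.05 (beside 1.98%), and 22 to 27 with a library left out. Members with a peak at a gene end, 3, were 1 with a q under 0.05 and 5 within 2 kb, beside 11.4% and 71.4% of all protein-coding genes. Leaving out a library gave −14.3 to 6.33 for the summed difference (positive only without sgRosa 1), 0.961 to 1.04 for the pooled density ratio and 2 to 3 for gene ends. For single genes it gave −2.83 to 0.50 peaks between groups at Lrrtm3, and for gene minus flanks −2.49 to 0.898 at Nlgn1, −0.758 to 13.7 at Nlgn2, −4.38 to 5.50 at Lrrtm1 and −2.30 to 3.80 at Lrrtm3 (peaks per Mb). Of 270 values of single genes, 23 turned direction. Gene minus flanks (peaks per Mb) turned at Nrxn2 to 0.0931 in full lists and 1.88 with other genes left out of the flanks. At Lrrtm1 it was −0.350 with 26932 peaks, −0.242 with a q under 0.05, −5.97 in the gene body and −0.126 with 10 kb. At Lrrtm3 it was −0.834 with 26932 peaks and −1.42 with a q under 0.05. At Nlgn1 it was 0.0501 in the gene body, 3.80 with 500 kb flanks and 2.94 with other genes left out. It was −0.616 at Nrxn3 with a q under 0.05. The group difference turned to −0.25 peaks at Lrrtm1 with a q under 0.05. The cause of these turns was not tested. With a q under 0.05 the test of Lrrtm2 against its flanks is void: it had 0 such peaks in every library, which fixes the p at its smallest value, and 7222 of the 7367 genes called there also had none. Adjusted p for Nrxn3 against its flanks ran from 0.10 to 0.990 over the alternatives. Same-numbered libraries were not treated as pairs, since the titles do not state that the replicate number pairs mice. The correlations of their deviations over 1021 genes were 0.0859, 0.0442, 0.0298 and −0.0040, beside −0.187 to 0.162 for differently numbered libraries. With the replicate block the summed difference was −7.5 and 0 genes passed, where 16 assignments allow no p under 0.125. Depth is unknown, so a peak missing near the calling limit cannot be read as closed chromatin.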
